A study of Mus musculus with 2 samples.

Results

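The amino acid transporter families are carriers of the cell surface and of lysosomes that move amino acids and related small molecules across membranes. They were taken here as every gene on the arrays whose symbol begins with *Slc1a*, *Slc3a*, *Slc6a*, *Slc7a*, *Slc36a*, *Slc38a* or *Slc43a*, leaving out *Slc6a6* and *Slc6a12*. This gave 60 genes of the 31821 gene names on the arrays. Of these, 46 gave a signal well above background on both arrays in at least 1 genotype and were compared, among 19708 such genes in all. The symbol rule also took in *Slc7a6os*, a gene named for lying opposite *Slc7a6* and not a carrier, which is counted with the others.

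The study compared whole kidneys, at an age of 2 months, between a knockout genotype, *Cnnm2*fl/fl;*Six2-Cre*, and a control genotype, *Cnnm2*+/+;*Six2-Cre*. Total RNA was extracted and copied into labeled cRNA, and cRNA of both genotypes was hybridized to each of 2 arrays, with knockout labeled Cy5 and control Cy3 on array 1, and the dyes exchanged on array 2. Both genotypes thus carry the *Six2-Cre* transgene, which acts in the progenitors of the nephron epithelium, while whole-kidney RNA also holds cells that arise from other progenitors. *Cnnm2* encodes a membrane protein of magnesium handling. The study used the arrays to look for genes that differ in the kidney when *Cnnm2* is deleted.

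The sources used here give neither how many mice each RNA sample came from nor if the same samples went onto both arrays. Both arrays together were therefore taken as a single replicate, so there is no test between genotypes, and each SD below is that of the 2 arrays. It covers labeling and hybridization, and would also hold variation between RNA samples if these differed between the arrays. The *Cnnm2* probe, used as a check of the labels, gave a knockout over control log2 ratio of -2.88 on array 1 and -2.46 under the exchanged dyes. Whether it lies in the deleted part of the gene is not given. All 13 proximal tubule markers checked were well above background, and none passed a mean log2 ratio of 0.5 in size with the same direction on both arrays (median of -0.08). Across the 19708 genes compared, which are not independent replicates, ratios on array 1 ran against those on array 2 (Pearson's r of -0.51).

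Nearly all amino acids filtered at the glomerulus are taken back in the proximal tubule. Carriers of the brush border, among them the SLC6 carriers of neutral amino acids and the SLC7 light chains bound to the SLC3A1 heavy chain, bring them into the cell, and basolateral carriers bound to SLC3A2 or working alone pass them on to the blood. Other members import glutamine for ammonia production, release amino acids from lysosomes, or clear neurotransmitters in nerve tissue.

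*Slc7a12* was the 1 transporter gene of the 46 that passed a mean log2 ratio of 0.5 in size with the same direction on both arrays, and it was lower in the knockout. Over all genes tested, 2.66% passed this rule in either direction and 1.38% as lower. No transporter gene passed it as higher, beside 1.28% of all genes, and *Slc7a12* also passed 0.5 on each array by itself, beside 1.35%. None of the 46 passed 2-fold, a log2 ratio of 1, which 0.599% of all genes did. The median of the 46 mean log2 ratios was 0.03, beside -0.01 over all genes. The carriers of the tubule that are named in inherited losses of amino acids into urine, *Slc3a1*, *Slc7a9*, *Slc6a19*, *Slc7a7*, *Slc1a1* and *Slc36a2*, had mean log2 ratios between -0.06 and 0.34. Among these, *Slc3a1*, *Slc7a9*, *Slc7a7* and *Slc36a2* turned direction with the dyes. The highest mean, that of *Slc6a19*, was smaller than the SD of its arrays (0.45).

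*Slc7a12* encodes Asc-2, a sodium-independent carrier of small neutral amino acids that does not pair with the known SLC3 heavy chains. It has a single probe on the arrays (A_55_P2061984), of 60 bases, at chr3:14505556-14505615 (mm9). The first 30 bases of the probe are shown because the only member past the rule rests on this single sequence.

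*Slc7a12* probe: catctgaagatccagaagaacagaaaaatt

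The longest run of bases that the whole *Slc7a12* probe shares with any other probe on the arrays is 14, with 1 probe for *Bcas3*. On array 1, its log2 processed signal was 9.40 in knockout RNA and 10.43 in control RNA. On array 2, these were 9.28 and 10.20. Both knockout signals lay below both control signals, though signals were not scaled between the arrays. The 2 log2 ratios were -1.04 and -0.92 and averaged -0.98 ± 0.09 (SD), which is a linear ratio of 0.508. Of all genes tested, 62 (0.315%) had the same direction on both arrays and a mean at or below that of *Slc7a12*. Since the RNA is from whole kidney, fewer cells with *Slc7a12* RNA and less of it per cell cannot be told apart.

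Markers of other cells were read as well, and how many were lower in the knockout on both arrays differed between the lists. Of 14 markers of the loop, distal tubule and collecting duct, 8 were lower and 0 higher on both arrays (median log2 ratio of -0.21). *Pvalb*, *Trpm6* and *Calb1* of the distal convoluted tubule passed 0.5, with means of -1.75, -1.40 and -1.01. The study had already reported *Pvalb* and *Trpm6* as lower from these same arrays, so their place among the lower markers is no separate evidence. *Slc12a3*, which encodes the NCC carrier of the same segment, changed direction, with -0.78 on array 1 and 0.19 on array 2. Of 5 podocyte markers, 4 were lower and 0 higher on both arrays (median of -0.32), with none past 0.5. Of the 13 proximal tubule markers, 2 were lower and 1 was higher on both arrays. Of 5 endothelial markers, 2 were lower and 1 was higher on both, and of 6 leukocyte markers above background none kept its direction. Of 4 red blood cell markers, 2 were lower and 0 higher on both, and of 4 fat markers above background, 2 were higher and 0 lower. *Slc4a1* (-0.15 and -0.21) is counted as lower both among the red blood cell markers and among those of the distal tubule and collecting duct. Of 2 adrenal cortex markers above background, 1 was lower and 0 higher on both. Over all genes, 15.6% were lower and 12.1% higher on both. Any part of the cell makeup in the result for *Slc7a12* was not tested.

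The labels do not give the sex of the mice, and the study states that mice were matched for sex in each experiment, so genes known to differ between male and female kidney were read beside *Slc7a12*. The Y-linked genes *Ddx3y*, *Uty* and *Eif2s3y* were well above background in all 4 channels, and their ratios changed direction when the dyes were exchanged. *Xist*, which is transcribed from the inactive X chromosome of female cells, was not well above background in either genotype on both arrays, with log2 signals of 2.44 and 1.57 in knockout RNA and 1.62 and 1.36 in control RNA. Of 6 male-biased kidney genes, 4 were higher and 1 was lower in the knockout on both arrays, beside 12.1% and 15.6% of all genes. Their median log2 ratio was 0.27. *Acsm3* passed 0.5 as higher (0.93 on array 1 and 0.22 on array 2), as 2.66% of all genes did in either direction. *Cyp2e1*, also counted as higher, had 0.47 on array 1 and 0.0008 on array 2. The 1 lower gene was *Kap* (-0.10 on each array), which is also among the proximal tubule markers, and *Cyp4b1* changed direction (-0.06 and 0.47). Of 4 female-biased genes, *Prlr*, the prolactin receptor, passed 0.5 as lower (-0.79 and -0.68), *Abcc3* was lower (-0.14 and -0.06), *Akr1c18* was higher (0.32 and 0.60) and *Cyp4a14* changed direction. Any part of sex in the result for *Slc7a12* was not tested.

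**Figure D1:**
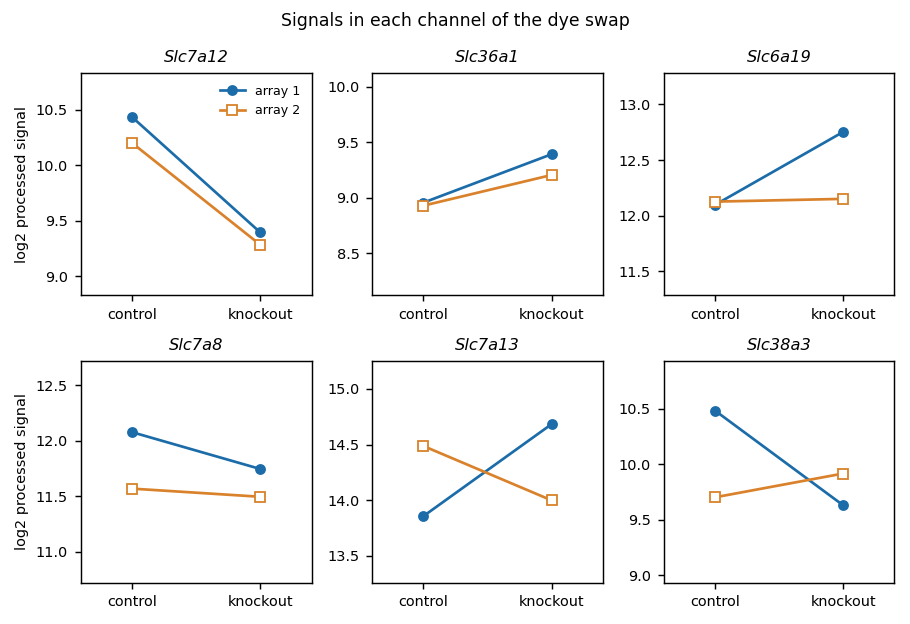
Log2 processed signal (vertical axis, a range of 2 log2 units in each panel) of 6 transporter genes in the control and knockout channel of each array. Lines join the channels of 1 array. *Slc7a12* runs down and *Slc36a1* runs up on both arrays, the lines of *Slc7a8* both run down, and those of *Slc7a13* and *Slc38a3* cross. Panels have their own axis, and levels of different genes cannot be compared.

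Among the light chains of the heteromeric carriers, none was higher on both arrays, beside 12.1% of all genes. Of the 7 above background only *Slc7a12* and *Slc7a8* were lower on both, beside 15.6%. The median of these 7 was -0.01. *Slc7a8* encodes LAT2, a basolateral exchanger of neutral amino acids. Its log2 signal was 11.74 in knockout RNA and 12.08 in control RNA on array 1, and 11.49 and 11.57 on array 2. The lowest control signal was thus below the highest knockout signal, although within each array the knockout was lower. Its mean log2 ratio was -0.20 ± 0.18 (SD).

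*Slc7a13* encodes a carrier of aspartate, glutamate and cystine in the late proximal tubule. Its log2 signal was 14.68 in knockout RNA and 13.86 in control RNA on array 1, while the control was the brighter channel on array 2. The channel with Cy5 was the higher one on each array, and the ratio turned from 0.83 to -0.49 when the dyes were exchanged. *Slc7a9* encodes the light chain of the cystine and dibasic amino acid carrier of the brush border, and its log2 ratios were 0.14 and -0.26 on arrays 1 and 2. For *Slc7a7*, the light chain of the basolateral y+L exchanger, the ratio was 0.18 on array 1 and -0.03 on array 2. *Slc7a5*, which encodes LAT1, had 0.25 and -0.27, and *Slc7a6*, a further y+L light chain, had 0.22 and -0.15. All 4 of these turned direction with the dyes.

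The heavy chains bring the light chains to the membrane. *Slc3a1* encodes rBAT, the partner of the *Slc7a9* product, with log2 ratios of -0.21 and 0.12. *Slc3a2* encodes 4F2hc, the partner of most basolateral light chains, and had -0.24 and 0.10. Neither kept its direction, and their means were -0.04 ± 0.23 and -0.07 ± 0.24 (SD).

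Of the 3 cationic carriers of the SLC7 family above background, 1 kept its direction, as 27.7% of all genes did. *Slc7a1* encodes CAT1, the widely expressed carrier of arginine and lysine, with -0.33 on array 1 and 0.18 on array 2. *Slc7a2* encodes CAT2, and had -0.51 and 0.11. *Slc7a4*, a related gene of uncertain transport function, was higher on both arrays (0.10 and 0.20), with a mean log2 ratio of 0.15 ± 0.07 (SD). *Slc7a6os* was also higher on both arrays, at 0.18 and 0.13.

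**Figure D2:**
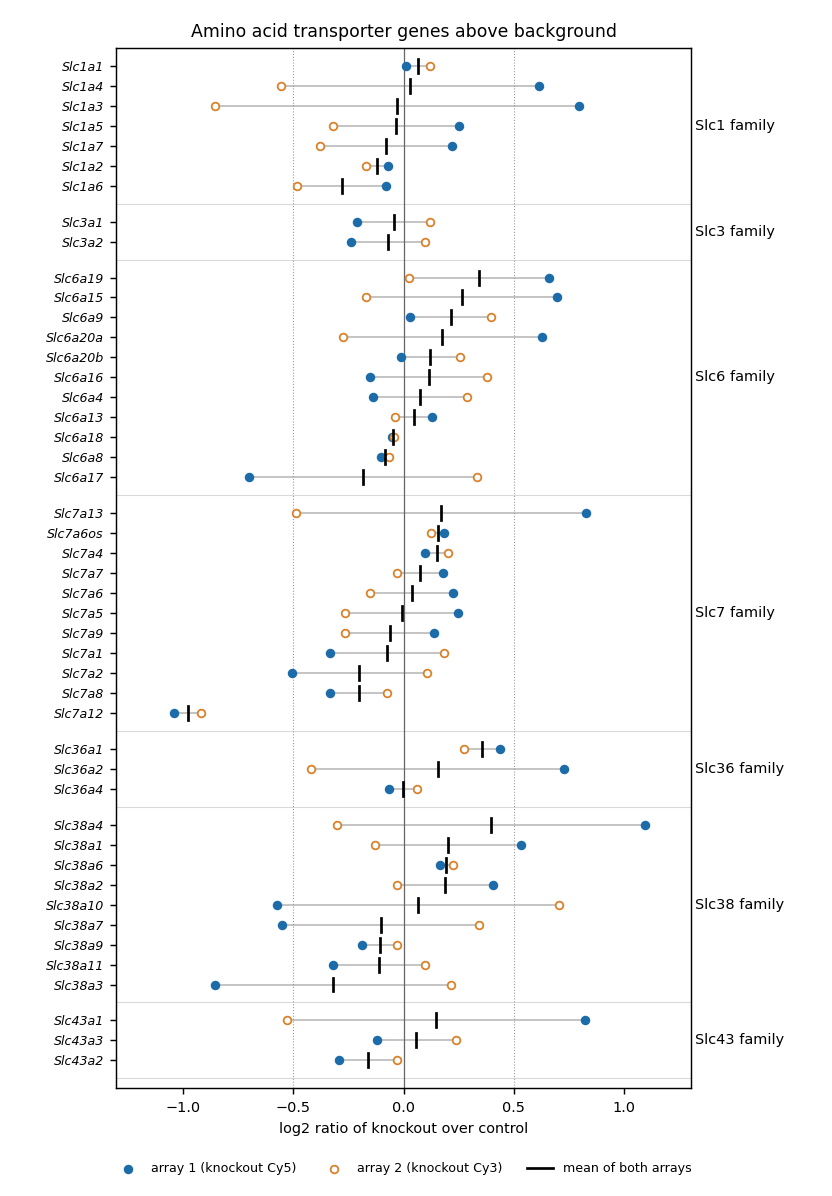
Log2 ratio of knockout over control (horizontal axis) of the 46 transporter genes above background, ordered within each family by the mean. Filled points are array 1, open points array 2 and bars the mean of both, and dotted lines mark -0.5 and 0.5. *Slc7a12* is the only gene with both points beyond a dotted line on the same side, and 15 of the 46 genes have both points on the same side of 0.

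The 4 SLC6 carriers of the brush border were all above background, with a median mean log2 ratio of 0.15. *Slc6a19* encodes B0AT1, the main carrier of neutral amino acids in the early proximal tubule. Its log2 signal was 12.75 in knockout RNA and 12.10 in control RNA on array 1, and 12.15 in the knockout and 12.13 in the control on array 2. The difference lay nearly all on array 1, with ratios of 0.66 and 0.02, and the mean of 0.34 was smaller than the SD of the arrays (0.45). *Slc6a18* encodes B0AT3, a neutral amino acid carrier further along the tubule. Its ratios were -0.05 and -0.04 with the brightest probe, and -0.37 and 0.26 with its other probe, so the close repeat of the arrays belongs to 1 probe. *Slc6a20a*, which encodes an imino acid carrier, had 0.63 on array 1 and -0.27 on array 2. Its paralogue *Slc6a20b* had -0.01 and 0.25. Neither paralogue kept its direction.

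The remaining SLC6 members carry glycine, creatine, GABA, monoamines and other solutes. *Slc6a9* encodes the glycine carrier GLYT1 and was higher in the knockout on both arrays. Its 2 probes overlap by 51 bases, and 30 bases of each are shown to make clear that they read the same stretch of RNA and are no independent evidence. Capitals mark the 21 bases that both excerpts hold.

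*Slc6a9* probe A_55_P1973838: gcccagtgtGTGCAGAACTAGGGTTTTAAA
*Slc6a9* probe A_55_P2010788: GTGCAGAACTAGGGTTTTAAAgtccgtagg

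These lie on chromosome 4 of mm9 from 117541842 to 117541901 and from 117541851 to 117541910. For the *Slc6a9* probe used, the log2 signal was 12.65 in knockout RNA and 12.62 in control RNA on array 1, and 12.60 and 12.20 on array 2. The ratios were 0.03 and 0.40 for this probe and 0.14 and 0.26 for the overlapping one. The means were close, at 0.21 and 0.20, while the split between the arrays differed from one probe to the other. *Slc6a8*, the creatine carrier, was lower on both arrays by a small amount (-0.10 and -0.07, mean of -0.08 ± 0.03, SD). *Slc6a13* encodes GAT2, a carrier of GABA and related solutes in kidney and liver, and had 0.13 and -0.04. *Slc6a15*, a carrier of branched-chain amino acids and proline best known from brain, had 0.70 and -0.17. *Slc6a17*, a carrier of synaptic vesicles, had -0.70 and 0.33. *Slc6a4*, the serotonin carrier, had -0.14 and 0.29, and *Slc6a16*, an orphan member, had -0.15 and 0.38.

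All 7 SLC1 members were above background, and the median of their means was -0.03. *Slc1a1* encodes EAAC1, the glutamate and aspartate carrier of the proximal tubule. Signals of 13.36 in the knockout and 13.35 in the control on array 1, and of 13.31 and 13.19 on array 2, on the log2 scale, were measured. *Slc1a1* ratios were 0.01 and 0.12, so it was higher on both arrays by little. The glutamate carriers best known from brain, *Slc1a2* and *Slc1a6*, were lower on both arrays, at -0.07 and -0.17 for *Slc1a2* and at -0.08 and -0.48 for *Slc1a6*. With normexp background correction and loess normalization, the mean log2 ratio of *Slc1a6* was -0.03 in place of -0.28. The neutral amino acid exchanger genes *Slc1a4* and *Slc1a5* turned direction, from 0.61 to -0.55 and from 0.25 to -0.32. *Slc1a3*, a glial glutamate carrier, showed the widest gap between the arrays of all 46 genes, with 0.79 and -0.85. *Slc1a7*, known from retina, had 0.22 and -0.38 and was above background in the control on both arrays and in the knockout on 1.

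The SLC36 carriers couple amino acids to protons. *Slc36a1* encodes PAT1, which exports amino acids from lysosomes and also takes up glycine and proline at the surface of some epithelia. Its log2 signal was 9.39 in knockout RNA and 8.96 in control RNA on array 1, and 9.21 in the knockout and 8.93 in the control on array 2. Both knockout signals lay above both control signals, again without scaling between the arrays. *Slc36a1* ratios were 0.44 and 0.28, with a mean log2 ratio of 0.36 ± 0.11 (SD). A second probe for *Slc36a1* had 0.19 and 0.12, with the same direction and a smaller mean of 0.16. *Slc36a2*, the carrier of proline and glycine in the proximal tubule, had 0.73 and -0.42. *Slc36a4*, a carrier of proline and tryptophan, had -0.07 and 0.06.

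The SLC38 family carries glutamine and other neutral amino acids with sodium. *Slc38a3* encodes SNAT3, which takes up glutamine at the basolateral side of the proximal tubule for ammonia production. In the knockout the log2 signal was 9.63 and in the control 10.48 on array 1, and 9.92 and 9.70 on array 2. The ratios of -0.85 and 0.21 had opposite signs, and the mean of -0.32 was smaller than the SD of 0.75. *Slc38a4*, an imprinted system A carrier gene, had the highest mean log2 ratio of all 46 genes, at 0.40 ± 0.99 (SD). Its log2 signal was 7.37 in knockout RNA and 6.27 in control RNA on array 1, but 6.31 in the knockout and 6.61 in the control on array 2. The highest mean thus belonged to a gene whose arrays had opposite directions.

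*Slc38a6* was higher on both arrays, at 0.17 and 0.22, and the lysosomal arginine sensor gene *Slc38a9* was lower, at -0.19 and -0.03. *Slc38a2*, which encodes SNAT2, a carrier known to be induced when amino acids are short, had 0.40 and -0.03. *Slc38a1* encodes SNAT1, and its brightest probe had 0.53 and -0.13. Another *Slc38a1* probe above background had -0.09 and -0.11, and this was the 1 gene among 7 with more than 1 probe above background whose probes had means of opposite sign (0.20 and -0.10). *Slc38a7*, a lysosomal glutamine exporter gene, had -0.55 and 0.34, and *Slc38a10* had -0.57 and 0.71. *Slc38a11* had -0.32 and 0.10 and was above background in the knockout on both arrays and in the control on 1. Its second probe, above background in the control on both arrays, was lower on both (-0.08 and -0.70).

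The SLC43 members are facilitative carriers without ion coupling. *Slc43a2* encodes LAT4, a basolateral carrier of neutral amino acids in the tubule, and was lower on both arrays. The log2 signals were 12.01 (knockout) and 12.30 (control) on array 1, and 11.90 and 11.93 on array 2. The mean log2 ratio was -0.16 ± 0.19 (SD), with nearly all of the difference on array 1. *Slc43a1*, which encodes LAT3, had 0.82 and -0.53. *Slc43a3*, now known as a carrier of purine nucleobases, had -0.12 and 0.24.

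**Figure D3:**
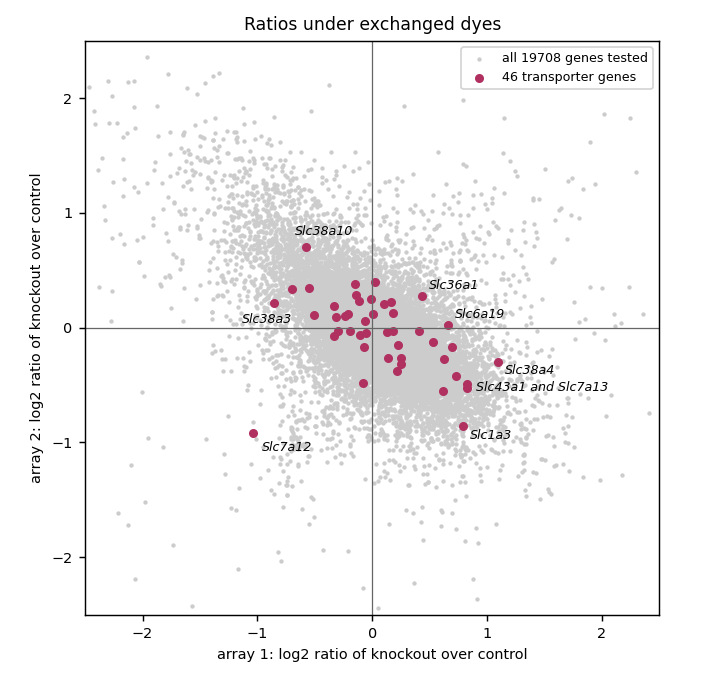
Log2 ratio of knockout over control on array 1 (horizontal axis) against array 2 (vertical axis), with the 46 transporter genes in red over the 19708 genes tested in grey. Genes with the same direction lie at the upper right or lower left, *Slc7a12* lies apart from the other transporter genes at the lower left, and 58 genes fall outside the plotted range.

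The 46 genes were also read as a set, beside the shares of all genes tested. The same direction on both arrays was found for 15 of them (32.6%), beside 27.7% of all genes. The mean was above 0 for 24 (52.2%), beside 47.7%. Of the 15, 7 were higher in the knockout on both arrays (15.2%, beside 12.1% of all genes): *Slc1a1*, *Slc6a9*, *Slc6a19*, *Slc7a4*, *Slc7a6os*, *Slc36a1* and *Slc38a6*. The other 8 were lower on both (17.4%, beside 15.6%): *Slc1a2*, *Slc1a6*, *Slc6a8*, *Slc6a18*, *Slc7a8*, *Slc7a12*, *Slc38a9* and *Slc43a2*. For 9 genes the mean was larger in size than the SD of the arrays (19.6%, beside 20.7%), and for a different 9 the arrays differed by at least 1 (19.6%, beside 15.8%). The SD of the mean log2 ratio over genes was 0.22 for the transporters and 0.23 for all genes, and Pearson's r between the arrays was -0.44 across the 46 genes. By family, the median mean log2 ratio ran from -0.06 for SLC3 to 0.15 for SLC36.

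The methods' t-test, paired over the 2 arrays, asks how closely the 2 arrays repeat, and cannot stand for a test over mice, whose number is not given. At its threshold of 0.1 it took in *Slc6a18*, *Slc7a12* and *Slc38a6* (3 of 46, beside 4.99% of all genes), and at a threshold of 0.05 only *Slc7a12* (beside 2.47%). With the further demand of a mean fold above 2, none of the 46 passed, beside 0.183% of all genes. After Benjamini-Hochberg adjustment over all 19708 genes, no gene of the arrays passed 0.1.

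A further 14 genes of the families were not well above background in either genotype on both arrays and were not compared. Among them were *Slc6a2*, *Slc6a3*, *Slc6a7*, *Slc6a11* and *Slc6a14*, of which *Slc6a2*, *Slc6a3* and *Slc6a11* clear neurotransmitters, *Slc7a3*, *Slc7a10*, *Slc7a11*, *Slc7a14* and *Slc7a15*, *Slc36a3*, and *Slc38a5* and *Slc38a8*. *Slc7a11* encodes xCT, the cystine and glutamate exchanger, and was above background in 0 of 4 channels, as was *Slc38a5*. Differences of these genes were not measurable with these arrays.

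**Figure D4:**
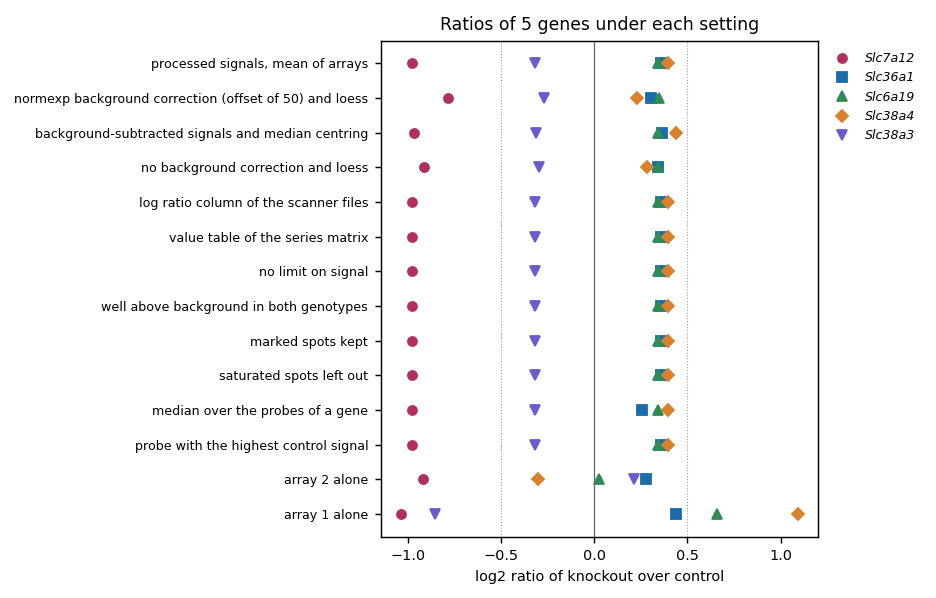
Mean log2 ratio of knockout over control (horizontal axis) of 5 transporter genes under each way of processing the signals (vertical axis), with dotted lines at -0.5 and 0.5. *Slc7a12* lies beyond -0.5 in every row and *Slc36a1* above 0 in every row, while *Slc38a4* and *Slc38a3* change sign between the rows for array 1 alone and array 2 alone.

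Genes that work with the carriers were read from 5 lists with 95 genes, of which 83 were above background. Together they had a median mean log2 ratio of 0.01, with 18 genes higher and 9 lower on both arrays, beside 12.1% and 15.6% of all genes, and 4 passed 0.5 with the same direction, beside 2.66%. None of the 7 partners and brush border peptidases above background passed. *Tmem27* encodes collectrin, which SLC6A19 needs at the brush border, and had 0.40 on array 1 and -0.15 on array 2. *Dpep1*, a dipeptidase, was higher on both (0.20 and 0.33). None of 13 other carriers of amino acids and peptides passed either. Among these, *Slc16a10*, the basolateral carrier of aromatic amino acids, was higher on both arrays (0.19 and 0.09).

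In the list of the response to amino acid shortage, 9 of 21 genes were higher on both arrays and 0 were lower, beside 12.1% and 15.6% of all genes, and the median mean log2 ratio was 0.08. The list was chosen with earlier results known and was not tested as a set. The 2 that passed 0.5 were *Ddit4*, a stress-induced inhibitor of mTORC1, and *Nupr1*, a stress-induced chromatin protein. *Ddit4* had 1.60 on array 1 and 0.94 on array 2, a mean log2 ratio of 1.27 ± 0.46 (SD). *Nupr1* had 0.84 and 0.67, a mean of 0.75 ± 0.12 (SD). *Atf4*, the transcription factor at the centre of this response, turned direction (0.30 and -0.09). Among its known targets, *Asns* (0.07 and 0.54), *Chac1* (0.21 and 0.45) and *Psat1* (0.47 and 0.34) were higher on both arrays, and *Trib3* (-0.14 and 0.01) and *Ddit3* (-0.30 and 0.20) were not. Further genes of the list turned direction, among them *Sesn2* (-0.07 and 0.63), *Shmt2* (-0.21 and 0.28), *Mthfd2* (0.16 and -0.25) and *Atf3* (-0.43 and 0.09).

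Of 10 regulators of uptake and sensing, *Sgk1* passed 0.5 as higher, with 0.67 on array 1 and 0.40 on array 2 (mean log2 ratio of 0.53 ± 0.20, SD). It encodes a kinase that raises the surface level of several carriers. *Nedd4l*, a ubiquitin ligase, was lower on both arrays (-0.10 and -0.18). Of 32 enzymes of amino acid metabolism, 1 passed 0.5. This was *Bhmt*, which makes methionine from homocysteine, with -0.84 and -0.43 and a mean of -0.64 ± 0.29 (SD). *Glud1*, which encodes glutamate dehydrogenase, and *Pck1*, an enzyme of glucose production, turned direction with the dyes, with 0.53 and -0.19 for *Glud1* and 0.33 and -0.22 for *Pck1*.

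**Figure D5:**
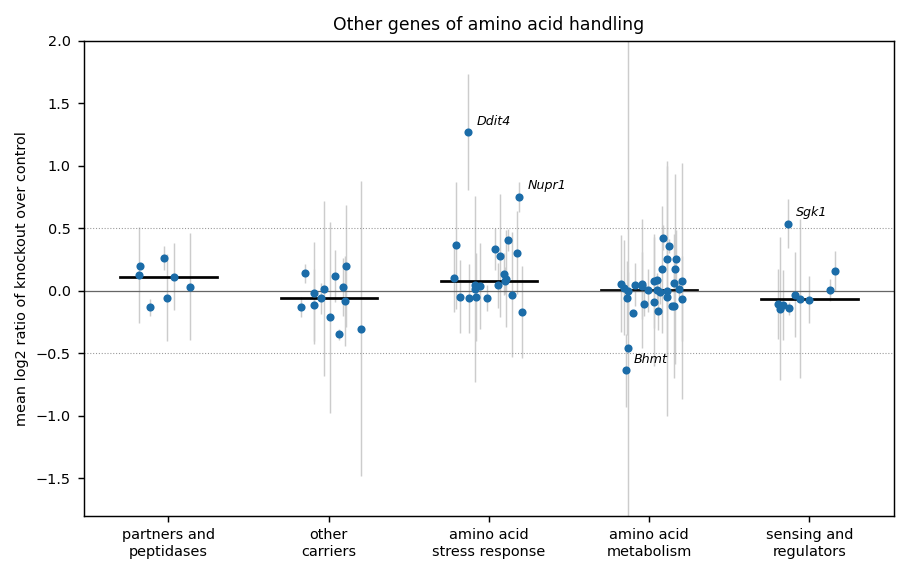
Mean log2 ratio of knockout over control (vertical axis) of the other genes of amino acid handling above background, in 5 lists along the horizontal axis. Points are genes, grey lines the SD of the 2 arrays, black bars the median of the list and dotted lines -0.5 and 0.5. The 4 labelled genes passed 0.5 with the same direction on both arrays. The grey line of 1 enzyme, *Amt*, leaves the plotted range (-3.21 on array 1 and 2.30 on array 2).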

How the data were processed

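Kidney RNA of both genotypes was measured on 2 arrays of an Agilent whole mouse genome design, labeled with Cy3 and Cy5 and with the dyes exchanged. Both arrays lie on 1 slide. The authors read the arrays with Agilent Feature Extraction (version 10.7.3.1 by the file headers and 10.5.1.1 by the submitters' processing notes). The deposited intensity columns hold signals before and after background subtraction and the processed intensity, corrected by the software for background and for dye within each array. The deposited log10 ratio of red over green, and the log10 ratio in the authors' value table, were used as alternatives and differed by at most 0.00492 once the sign for array 2 was turned. Positions of probes come from the files (mm9).

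Processed signals were taken to log2, leaving out controls and any spot with the software's mark for non-uniformity or for an outlier among its copies (141 and 175 of 43020 spots for genes), and spots of a probe were averaged. No spot of a transporter gene was marked or saturated. The brightest probe stood for a gene. A gene was compared where, by the software's call, the knockout or the control was well above background on both arrays. Of the gene spots, 62.6% to 68.0% were well above background in a channel. The number of arrays limits the precision, and for 399 probes printed at least 5 times, the median SD between spots was 0.050 and 0.047.

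Named genes were a fixed set of kidney carriers, every member past a rule of size, the 5 highest and 5 lowest means, the 3 with the widest gap between arrays, and members of each role group. The members and lists were chosen with earlier results of these data known. Alternatives were normexp (offset of 50) with loess, background-subtracted signals (floor of 1) with median centring, uncorrected signals with loess, the deposited ratios, other filters and probe choices, each array alone and the contrast between the dyes. Code was tested on simulated data. Tools were limma 3.58.1 under R 4.3.3, and scipy 1.17.1, pandas 2.3.3, numpy 2.4.6 and matplotlib 3.10.9 under Python 3.11.15. No genome was used. Values of a few listed genes are not reported here.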

Additional observations from a re-analysis of the deposited data

How the results depend on the processing

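The count of transporter genes past 0.5 was 1, and that past 2-fold 0, under the 3 other background and dye corrections, both deposited log10 ratios, the stricter signal limit, the treatment of marked and saturated spots and both other probe choices. Of all genes, 0.68% (normexp) to 2.73% (median over probes) passed 0.5 under these settings. The share past 2-fold was 0.0761% (normexp) to 0.609% (marked spots kept). The count with the same direction on both arrays was 13 to 17 over these settings and without a limit on signal. Without that limit, 1 of 60 genes passed 2-fold (*Slc7a15*, above background in 0 of 4 channels), 3 passed 0.5 (*Slc7a12*, *Slc6a7* and *Slc7a15*) and 1 passed the methods' rule. Of all genes, 1.29% passed 2-fold and 5.52% passed 0.5 without that limit. With array 2 alone, 2 of 50 genes passed 2-fold and 8 passed 0.5, beside 6.84% and 21.5% of all genes. With array 1 alone, 5 of 51 passed 2-fold and 20 passed 0.5, beside 8.03% and 26.7%. The median log2 ratio was -0.030 with array 2 alone and 0.13 with array 1 alone, beside -0.055 and 0.031 over all genes. The contrast between the dyes, which holds no genotype effect, passed 0.5 for 9 of the 46 genes and for 15.5% of all genes. For *Slc7a12* the mean log2 ratio lay between -0.98 and -0.78 over settings that use both arrays. Members named only for their role group, such as *Slc6a8*, *Slc7a4* and *Slc38a6*, and *Slc7a6os* were not followed over these settings. Of the 30 other named genes compared, 26 kept their sign. The exceptions were *Slc1a3*, *Slc1a5* and *Slc7a5*, which were at 0.04, 0.01 and 0.05 with normexp, and *Slc38a1*, which was at -0.07 with the median over its probes. *Slc7a2* was at -0.02 and *Slc38a4* at 0.23 with normexp, in place of -0.20 and 0.40. The cause of these moves was not tested. The genotypes are paired within each array by the ratio itself, so no further fit with a replicate block was made.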
